A study of Homo sapiens with 8 samples.

Results

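Coenzyme Q is the lipid electron carrier of the mitochondrial inner membrane, and 10 nuclear genes named for its synthesis were followed here in human neurons given inhibitors of respiration. The genes are PDSS1, PDSS2, COQ2, COQ3, COQ4, COQ5, COQ6, COQ7, COQ8A and COQ9, taken by name from pathway knowledge. Earlier results of these data were known when they were chosen. They are 10 of 62826 genes in the deposited gene tables and 10 of 19785 that passed the filter on low counts, so no member was lost to that filter. The cells were LUHMES, a conditionally immortalised human midbrain line that stops dividing and takes on a dopaminergic neuron form when tetracycline shuts off its oncogene. One group was treated for 8 h with 25 µM antimycin A plus 10 µM oligomycin, and the other received the DMSO vehicle. Both groups carried the WT genotype and had been differentiated for 6 days with 1 µg/mL tetracycline, 1 mM dbcAMP and 2 ng/mL GDNF. Every value below is from this single immortalised line. There were 4 libraries per group, from independent differentiations that the titles number 2 to 5, and each differentiation was made of 4 technical replicates per the series text. Antimycin A blocks complex III, which takes electrons from coenzyme Q, and oligomycin blocks the ATP synthase.

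Coenzyme Q consists of a ring that carries the electrons and a long isoprenoid tail that holds it in the membrane. The tail is built by PDSS1 with PDSS2 from products of the mevalonate pathway, COQ2 joins it to the ring precursor, and COQ3, COQ5, COQ6 and COQ7 then add methyl and hydroxyl groups. COQ4, COQ8A and COQ9 are also needed for the synthesis, and many of these proteins gather in a complex at the inner membrane. Neurons rely on oxidative phosphorylation, and inherited defects in several of these genes cause ataxia or encephalopathy.

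Of the 10 members, 3 were higher and 5 were lower in treated cells, and 2 did not pass the test (edgeR quasi-likelihood test, adjusted p under 0.05 over all 19785 genes). PDSS2, COQ2 and COQ5 rose by log2 fold changes of 0.28 to 0.41. COQ3, COQ4, COQ7, COQ8A and COQ9 fell by 0.32 to 0.59 on the log2 scale. Over all genes tested 57.9% were called, 27.7% higher and 30.2% lower, so the calls in 8 of 10 members stand beside calls in most genes tested. The median log2 fold change of the members was -0.14, against -0.020 for all genes tested.

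Promoter sequence is shown for COQ2 and COQ5, which rose, and for COQ7 and COQ9, which fell, as examples of both directions. RefSeq promoters of the GRCh38.p14 build, which run from 250 bases before a start site to 50 after it, were at hand for 8 of 10 members and 13 start sites. Those printed are chr4:83284749-83285048 for COQ2 and chr12:120529109-120529408 for COQ5, both on the minus strand, and chr16:19067657-19067956 for COQ7 and chr16:57447229-57447528 for COQ9, both on the plus strand. Each is written 5′ to 3′ along its gene, and capitals mark a match to a searched motif.
COQ2: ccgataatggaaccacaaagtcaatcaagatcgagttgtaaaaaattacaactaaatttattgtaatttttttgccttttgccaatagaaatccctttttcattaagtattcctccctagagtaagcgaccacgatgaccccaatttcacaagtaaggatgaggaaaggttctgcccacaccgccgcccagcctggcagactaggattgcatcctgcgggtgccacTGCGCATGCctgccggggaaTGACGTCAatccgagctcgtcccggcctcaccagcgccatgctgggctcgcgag
COQ5: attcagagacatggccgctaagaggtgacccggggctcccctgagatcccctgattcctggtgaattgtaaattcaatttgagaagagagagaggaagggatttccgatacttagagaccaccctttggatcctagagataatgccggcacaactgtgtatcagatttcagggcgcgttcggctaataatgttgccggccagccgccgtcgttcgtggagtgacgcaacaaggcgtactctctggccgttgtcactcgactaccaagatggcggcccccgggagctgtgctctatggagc
COQ7: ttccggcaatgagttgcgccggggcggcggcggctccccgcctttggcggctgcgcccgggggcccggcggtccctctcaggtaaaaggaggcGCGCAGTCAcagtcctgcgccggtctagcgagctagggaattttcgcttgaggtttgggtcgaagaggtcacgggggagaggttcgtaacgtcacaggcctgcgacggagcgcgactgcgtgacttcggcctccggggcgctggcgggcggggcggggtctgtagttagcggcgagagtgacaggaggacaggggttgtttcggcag
COQ9: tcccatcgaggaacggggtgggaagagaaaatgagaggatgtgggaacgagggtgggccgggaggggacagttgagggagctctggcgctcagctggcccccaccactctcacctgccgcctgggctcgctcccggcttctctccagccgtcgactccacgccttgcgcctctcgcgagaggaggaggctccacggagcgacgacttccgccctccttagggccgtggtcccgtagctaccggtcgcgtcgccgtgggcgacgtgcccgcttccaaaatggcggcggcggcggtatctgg
The motifs were sought on both strands, and the first 4 letters of the cAMP and antioxidant elements are the same.
The COQ2 promoter held the cAMP response element TGACGTCA with its first base at position -4 from the start site, a motif found in 1.85% of all 35116 promoters of that length. It also held the NRF1 motif TGCGCATGC at position -24, which occurs in 1.56% of them. The antioxidant response element core TGACNNNGC was matched in 4 of 13 member promoters, 2 of COQ6 and 2 of COQ7, against 13.3% of all promoters. Within each of these genes the windows overlap and the match is the same run of letters. In the COQ7 promoter printed above, that match lies on the opposite strand at position -157. That window begins at 19067657, inside the annotated gene, which starts at 19067599. The COQ7 window that spans the annotated start, from 19067364, held none of the motifs. The printed COQ5 window also lies inside its annotated gene (120503274 to 120534434). The amino acid response element core TGATGNAA and the ETS motif CCGGAAGT were in 0 of 13 member promoters, and in 3.62% and 4.14% of all. The printed COQ2 and COQ5 promoters are 49.7% and 54.3% G and C, those of COQ7 and COQ9 68.3% each, and the median over all promoters is 58.7%. The other COQ7 windows are 51.0, 61.3 and 63.7% G and C, and that of PDSS2, which rose, is 61.0%. A match in these windows is a description of letters and was not tied to binding of any factor.

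The tail enzymes PDSS1 and PDSS2 are the subunits of one prenyl synthase. PDSS2 (ENSG00000164494.12, chromosome 6 from 107152557 to 107459564, hg38) had 14.4, 14.8, 16.1 and 16.4 CPM in treated libraries 2 to 5, against 12.4, 12.8, 12.5 and 13.3 CPM in vehicle libraries 2 to 5, where CPM are reads scaled by the TMM-adjusted library size. Every treated library stood above every vehicle library. The log2 fold change was 0.28 ± 0.0705 (SE, n = 4 per group, edgeR adjusted p = 0.0066), a call that ended with scaling by library totals in place of TMM (0.18, adjusted p = 0.078) and with limma on log2(TPM + 1) (0.14, adjusted p = 0.40).

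PDSS1 (ENSG00000148459.16, chromosome 10 from 26697659 to 26746798) had 9.31, 9.93, 10.3 and 9.82 CPM in treated libraries 2 to 5, against 9.90, 8.61, 8.19 and 7.81 CPM in vehicle libraries 2 to 5. The groups overlapped through vehicle library 2, which was the highest of its group. Its log2 fold change was 0.19 ± 0.0887 (SE, edgeR adjusted p = 0.091), with no call, and without vehicle library 2 it was 0.26 (adjusted p = 0.0076). With an offset for the effective length of the gene, the length open to reads given the transcripts found, it was 0.41 (adjusted p = 0.0059). PDSS1 shares 10.5% of its exonic bases with ABI1 on the opposite strand.

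COQ2, the prenyltransferase that joins tail and ring, rose as well. COQ2 (ENSG00000173085.15, chromosome 4 from 83261536 to 83284914) had 6.53, 7.24, 7.32 and 7.81 CPM in treated libraries 2 to 5, against 5.75, 5.92, 5.76 and 5.26 CPM in vehicle libraries 2 to 5. The groups did not overlap. Its log2 fold change was 0.35 ± 0.0851 (SE, edgeR adjusted p = 0.0053), or 1.27-fold.

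**Figure D1:**
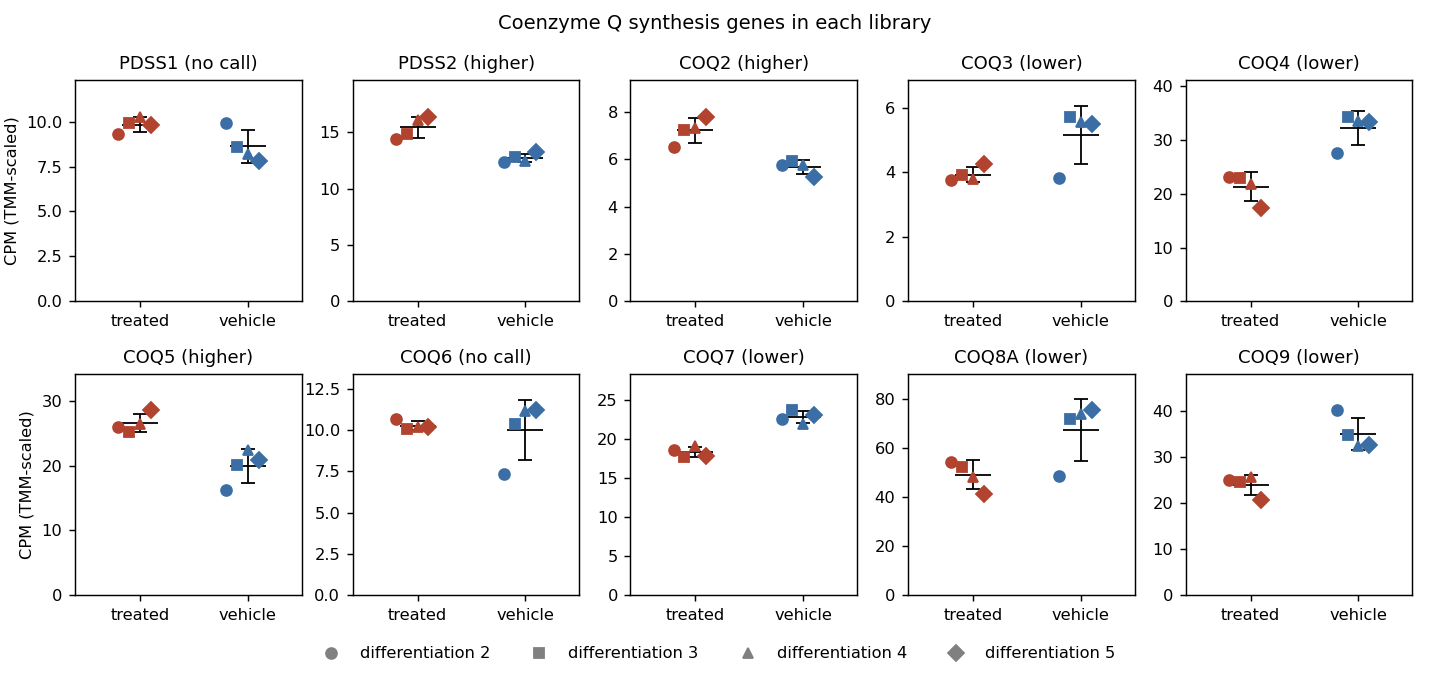
CPM on TMM-scaled library sizes (y axes, from 0) of each of the 10 genes in the 4 treated (left) and 4 vehicle (right) libraries, with a marker shape per differentiation number and bars for the mean ± SD. COQ4, COQ7 and COQ9 lie lower and PDSS2, COQ2 and COQ5 higher in every treated library, while vehicle library 2 stands apart in COQ3, COQ4 and COQ8A.

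COQ3, COQ5, COQ6 and COQ7, described above as modifying the ring, were divided. COQ5, the C-methyltransferase, was higher in treated cells, while COQ3, the O-methyltransferase, and COQ7, the hydroxylase of the penultimate step, were lower. COQ6, a flavin-dependent ring hydroxylase, did not pass.

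COQ5 (ENSG00000110871.15, chromosome 12 from 120503274 to 120534434) had 26.0, 25.2, 26.5 and 28.6 CPM in treated libraries 2 to 5, against 16.3, 20.1, 22.5 and 20.9 CPM in vehicle libraries 2 to 5. No treated library fell within the vehicle range. This gave a log2 fold change of 0.41 ± 0.0979 (SE, edgeR adjusted p = 0.0045), and 0.33 without vehicle library 2, the lowest of its group.

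COQ7 (ENSG00000167186.11, chromosome 16 from 19067599 to 19080095) had 18.7, 17.7, 19.1 and 17.9 CPM in treated libraries 2 to 5, against 22.6, 23.7, 22.0 and 23.1 CPM in vehicle libraries 2 to 5. The groups were tight and did not overlap. COQ7 had a log2 fold change of -0.32 ± 0.0619 (SE, edgeR adjusted p = 0.0014). Its mean effective length was 2023 bases in treated and 2192 bases in vehicle libraries, and with the length offset the fold change was -0.19 and the call ended (adjusted p = 0.053).

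COQ3 (ENSG00000132423.12, chromosome 6 from 99369400 to 99394204) had 3.75, 3.91, 3.78 and 4.26 CPM in treated libraries 2 to 5, against 3.82, 5.72, 5.56 and 5.49 CPM in vehicle libraries 2 to 5. Vehicle library 2 lay among the treated libraries and the other vehicle libraries lay above them. The COQ3 log2 fold change was -0.39 ± 0.131 (SE, edgeR adjusted p = 0.026), and -0.51 without vehicle library 2 (adjusted p = 0.00027). The call ended without any single one of treated libraries 2, 3 and 4 or vehicle libraries 3, 4 and 5 (adjusted p = 0.059 to 0.074), and it was past the threshold in 7 of the 16 alternatives, the fewest among the 8 calls.

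COQ6 (ENSG00000119723.17, chromosome 14 from 73949926 to 73963670) had 10.6, 10.0, 10.2 and 10.2 CPM in treated libraries 2 to 5, against 7.31, 10.4, 11.1 and 11.2 CPM in vehicle libraries 2 to 5. The difference was 0.037 ± 0.126 on the log2 scale (SE, edgeR adjusted p = 0.81), and -0.089 without vehicle library 2 (adjusted p = 0.23). No alternative called it. The gene shares 37.3% of its exonic bases with ENTPD5 on the opposite strand, COQ4 shares 4.30% with TRUB2, COQ5 shares 3.33% with RNF10 and COQ9 shares 2.41% with CIAPIN1. The sources do not state whether reads were counted by strand, so reads there cannot be told apart.

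The remaining members, COQ4, COQ9 and COQ8A, all fell. COQ4, a component of the complex, and COQ9, a lipid-binding protein that presents the intermediate to COQ7, were called lower in all 16 alternatives. COQ8A, a kinase-like protein with ATPase activity that is needed for the complex, was called lower in 13 of 16.

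COQ4 (ENSG00000167113.11, chromosome 9 from 128322536 to 128334072) had 23.1, 23.0, 21.9 and 17.3 CPM in treated libraries 2 to 5, against 27.5, 34.3, 33.5 and 33.3 CPM in vehicle libraries 2 to 5. The groups did not overlap, although vehicle library 2 stood below the rest of its group. Its log2 fold change of -0.59 ± 0.108 (SE, edgeR adjusted p = 0.00090) was the largest in size among the members, and without that library it was -0.66. With the length offset it was -0.44 (edgeR adjusted p = 0.0030), smaller in size than that of COQ9 (-0.47).

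COQ9 (ENSG00000088682.14, chromosome 16 from 57447425 to 57461275) had 25.0, 24.5, 25.6 and 20.8 CPM in treated libraries 2 to 5, against 40.1, 34.8, 32.5 and 32.6 CPM in vehicle libraries 2 to 5. Here vehicle library 2 was the highest, and the groups did not overlap. COQ9 had a log2 fold change of -0.55 ± 0.0937 (SE, edgeR adjusted p = 0.00062), with a range of -0.64 to -0.47 over the alternatives.

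COQ8A (ENSG00000163050.18, chromosome 1 from 226897536 to 226987545), the most abundant member by reads, had 54.5, 52.5, 48.3 and 41.2 CPM in treated libraries 2 to 5, against 48.8, 71.9, 73.8 and 75.4 CPM in vehicle libraries 2 to 5. Vehicle library 2 lay inside the treated range, and the other vehicle libraries lay far above it. The COQ8A log2 fold change was -0.46 ± 0.140 (SE, edgeR adjusted p = 0.017), and -0.59 without that library (adjusted p = 0.00028).

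Of the 10 members, 6 had groups that did not overlap in CPM, against 53.4% of all genes tested. The authors' deposited table of coding genes gave the same direction for 9 members, with log2 fold changes from -0.58 for COQ4 to 0.40 for COQ5, and -0.0069 for COQ6. In the authors' deposited table PDSS2 stood at 0.24 with a false discovery rate of 0.053, and the other 7 members called here were under 0.05 there. PDSS1 stood in that authors' deposited table at 0.17 with a false discovery rate of 0.27.

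Library-wide values bear on these results. Libraries held 93.8 to 109 M estimated reads in treated and 93.7 to 110 M in vehicle cells, and a member had 347 to 8731 reads in a library. The mRNAs of mitochondrial DNA took 2.14 to 2.90% of reads in treated libraries, 11.5% in vehicle library 2 and 3.27 to 4.33% in the other vehicle libraries. Vehicle library 2 was the lowest of its group in 6 members and the highest in 2. Summed CPM of 6 neuron markers were 4994 to 5135 in treated and 5988 to 6827 in vehicle libraries, with 4 of 6 lower. Summed CPM of 4 markers of dividing cells were 158 to 177 in treated and 216 to 310 in vehicle libraries, with 4 of 4 lower. Of 6 dopaminergic markers, TH had 12.01 to 18.3 CPM in treated and 5.84 to 8.92 CPM in vehicle libraries and was called higher (1.04, edgeR adjusted p = 0.00039). SLC6A3 had 472 to 628 CPM in treated and 505 to 671 CPM in vehicle libraries and NR4A2 had 9.33 to 12.1 CPM in treated and 8.84 to 14.2 CPM in vehicle libraries, neither of them called. DDC, SLC18A2 and LMX1B were under 1 CPM in every library, with DDC called lower (-1.05, edgeR adjusted p = 0.0013), so markers of the labelled dopaminergic type were present only in part. The 4 microglia markers, the astrocyte markers GFAP, AQP4 and S100B and the oligodendrocyte marker MOG were under 1 CPM throughout, and of these the microglia marker CD68 was called higher, at 0.399 to 0.533 CPM in treated and 0.0583 to 0.254 CPM in vehicle libraries (edgeR adjusted p = 0.0011). Summed CPM of the astrocyte list, nearly all from SLC1A3 (called higher, 3.26), were 28.2 to 30.01 in treated and 2.44 to 3.54 in vehicle libraries, and those of the oligodendrocyte list 19.7 to 25.2 in treated and 27.2 to 36.7 in vehicle libraries, with OLIG2 called lower (-0.52). The part of these markers in the members' changes was not tested, and in bulk RNA fewer cells of a kind and less RNA per cell cannot be told apart.

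The members were compared with each other per length, on the deposited TPM. In vehicle cells COQ9 (52.5 ± 2.58 TPM, SD, n = 4), COQ8A (50.1 ± 13.3) and COQ4 (49.99 ± 9.77) led, followed by COQ5 (31.1 ± 7.59), COQ7 (19.5 ± 3.29), COQ6 (15.4 ± 4.39) and PDSS1 (12.9 ± 1.25). COQ3 (9.05 ± 2.64), COQ2 (8.87 ± 1.21) and PDSS2 (7.75 ± 1.36) were lowest. Each neighbour in that order overlapped the next, except that PDSS1 lay above COQ3 in all libraries. The members thus spanned the 48.1 to 82.8 percentiles of mean TPM among tested genes.

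In treated cells the order changed at the top. COQ5 led with 39.6 ± 2.22 TPM (SD, n = 4), above COQ9 (36.3 ± 1.79), COQ4 (35.0 ± 2.81) and COQ8A (34.9 ± 2.05), of which COQ5 overlapped none in range and the other 3 overlapped each other. PDSS1 (16.5 ± 2.14), COQ7 (16.2 ± 0.904) and COQ6 (15.3 ± 0.941) came next, overlapping each other. COQ2 (10.9 ± 0.997), PDSS2 (8.56 ± 0.535) and COQ3 (6.72 ± 0.535) followed, each with its whole range below that of the gene before it. On the TPM scale the 2 groups did not overlap for COQ5 and COQ9 only. The share of all genes whose groups do not overlap in TPM was not worked out. For COQ4 vehicle library 2 stood at 35.4 TPM, within the treated range of 31.1 to 37.2 TPM, and the other vehicle libraries at 53.2 to 56.1 TPM. On log2(TPM + 1), limma called PDSS1 higher (0.33, adjusted p = 0.038) and COQ4 and COQ9 lower, and the other 7 members did not pass.

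**Figure D2:**
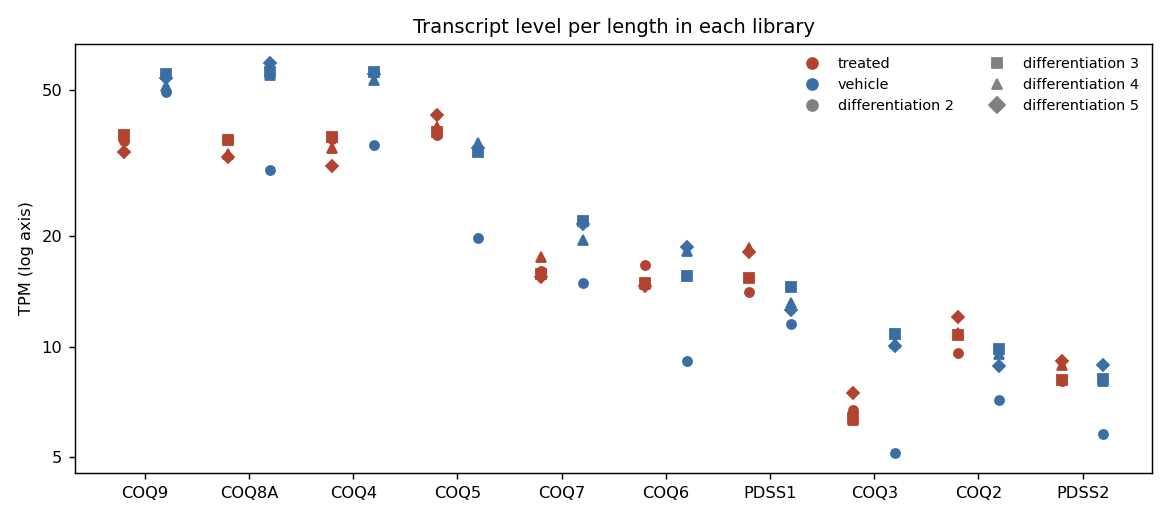
TPM (log axis) of each gene in the 4 treated (red, left) and 4 vehicle (blue, right) libraries, ordered by mean TPM in vehicle cells, with a marker shape per differentiation number. COQ9, COQ8A and COQ4 lead in vehicle cells near 50 TPM, and COQ5 leads in treated cells at 39.6 TPM.

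Transcript usage, the division of a gene's reads among its transcripts, was called in 9.34% of 11746 genes and in 0 of the 10 members (diffSpliceDGE of edgeR, Simes adjusted p). Before adjustment 1 member passed 0.05, COQ7, whose edgeR Simes adjusted p was 0.13. Over the alternatives that adjusted p ran from 0.013 without vehicle library 2 to 1.0 when transcripts needed 50 reads or had to be protein coding. The shares below are therefore a description. They are percentages of a member's TPM, and transcripts were named where they held at least 10% in either group. How often such shares do not overlap between groups over all transcripts was not worked out, so a lack of overlap has no background here.

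In COQ4 the smaller transcripts differed in share between groups that did not overlap. The protein-coding COQ4-205 held 26.4, 28.5, 28.4 and 28.2% of the gene's TPM in treated libraries 2 to 5, against 18.7, 14.2, 15.0 and 15.4% in vehicle libraries 2 to 5. COQ4-203, a transcript with no annotated protein, held 9.95 ± 0.628% in treated and 14.9 ± 0.401% in vehicle cells (SD, n = 4), and COQ4-202 held 5.81 ± 0.865% in treated and 10.8 ± 1.57% in vehicle cells. None of these 3 overlapped between groups, and the main COQ4-201 was at 52.4 ± 1.60% in treated and 53.5 ± 2.63% in vehicle cells. Usage of COQ4 was not called (edgeR Simes adjusted p = 0.75).

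PDSS1-201, the protein-coding form, held 78.8, 78.7, 56.9 and 54.6% of PDSS1 TPM in treated libraries 2 to 5, against 87.8, 79.7, 84.4 and 88.9% in vehicle libraries 2 to 5. PDSS1-203, which has no annotated protein, held 16.2 ± 3.48% in treated and 9.97 ± 1.19% in vehicle cells (SD, n = 4), without overlap. The short PDSS1-202 had 0, 0, 126 and 165 reads in treated libraries 2 to 5 and 0, 25, 0 and 0 reads in vehicle libraries 2 to 5. Usage of PDSS1 was not called (edgeR Simes adjusted p = 0.96). The effective length of PDSS1 ran from 981 to 1152 bases in treated and 1180 to 1281 bases in vehicle libraries. TPM and the length offset divide by this length, and the CPM do not.

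PDSS2-201 held 4.92 ± 1.84% in treated and 10.9 ± 2.85% in vehicle cells, with PDSS2-202 making up the rest, and the groups did not overlap. Usage of PDSS2 was not called either (edgeR Simes adjusted p = 0.48). COQ8A-206, which has no annotated protein, held 10.4 ± 1.87% in treated and 5.94 ± 0.697% in vehicle cells, again without overlap. COQ7-209 held 15.7 ± 0.569% in treated and 19.3 ± 0.525% in vehicle cells. For COQ2, COQ3, COQ5, COQ6 and COQ9 every named transcript overlapped between groups. Among tested COQ7 transcripts the largest relative log2 fold change in reads, 1.56, was that of the low nonsense-mediated decay form COQ7-205, chosen after its values were seen, with 26, 26, 24 and 9 reads in treated libraries 2 to 5 and 11, 2, 0 and 10 in vehicle libraries 2 to 5.

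**Figure D3:**
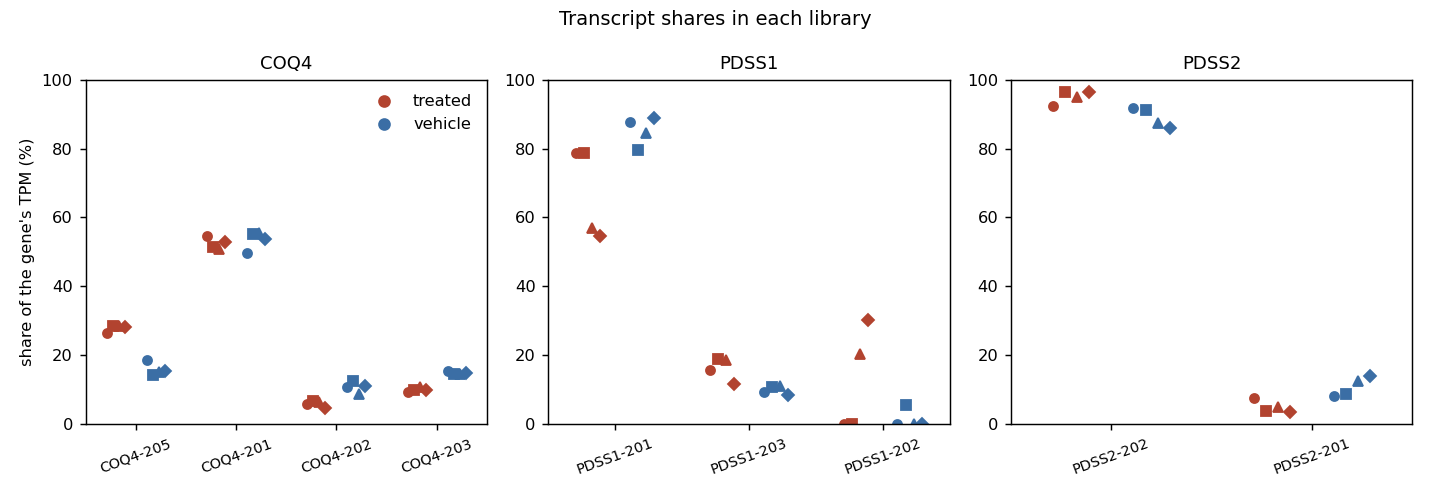
Share of a gene's TPM (percent, y axes) held by the named transcripts of COQ4, PDSS1 and PDSS2 in treated (red, left) and vehicle (blue, right) libraries, with a marker shape per differentiation number as in the plot of levels. COQ4-205 is near 28% in treated and 14 to 19% in vehicle libraries, and PDSS1-202 is present mainly in 2 treated libraries.

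Genes around the pathway were counted from lists chosen with earlier results of these data known, so the counts are a description only. Over all genes tested 27.7% were called higher and 30.2% lower, with a median log2 fold change of -0.020. Of 8 genes of isoprenoid supply, from acetyl-CoA to the prenyl diphosphates that PDSS1 and PDSS2 use, 5 rose, 0 fell and 3 did not pass, with a median log2 fold change of 0.88. HMGCS1, the cytosolic HMG-CoA synthase, had 781, 827, 894 and 1074 CPM in treated libraries 2 to 5, against 365, 373, 367 and 399 CPM in vehicle libraries 2 to 5 (1.25 ± 0.0973 SE). The mevalonate kinase gene MVK (1.15 ± 0.148 SE) and the isomerase gene IDI1 (1.08 ± 0.0972 SE) rose similarly, with no overlap between groups. At the branch point, FDPS, which makes farnesyl diphosphate, stood at 0.19 ± 0.0751 (SE, edgeR adjusted p = 0.056), and GGPS1, which extends it, at 0.16 ± 0.0712 (SE, edgeR adjusted p = 0.076). FDPS passed in DESeq2 (0.21, adjusted p = 0.027) and with the length offset (0.25, edgeR adjusted p = 0.031).

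Among 12 genes of enzymes that pass electrons to coenzyme Q or of their subunits, 7 rose, 3 fell and 2 did not pass, with a median of 0.36. NQO1, a cytosolic quinone reductase, had 166, 145, 142 and 149 CPM in treated libraries 2 to 5, against 30.0, 40.0, 29.5 and 30.3 CPM in vehicle libraries 2 to 5 (2.22 ± 0.108 SE, edgeR adjusted p = 1.5e-07). AIFM2, which reduces coenzyme Q outside mitochondria and protects against ferroptosis, had 3.40 ± 0.291 CPM in treated and 0.890 ± 0.136 CPM in vehicle cells (SD, n = 4), a log2 fold change of 1.93 ± 0.137 (SE). SQOR, the sulfide oxidoreductase, had 1.06 ± 0.206 CPM in treated and 0.196 ± 0.0619 CPM in vehicle cells (2.42 ± 0.241 SE).

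Lower in that list were GPD2, the mitochondrial glycerol phosphate dehydrogenase, with 40.3 ± 1.16 CPM in treated and 66.4 ± 2.61 CPM in vehicle cells (SD, n = 4), SDHA and DHODH. SDHA, the flavoprotein of complex II, had 66.3 ± 2.97 CPM in treated and 93.0 ± 7.79 CPM in vehicle cells (-0.49 ± 0.0729 SE, edgeR adjusted p = 0.00025). The other complex II subunits did not fall with it. SDHB (0.22, edgeR adjusted p = 0.018) and SDHD (0.51, edgeR adjusted p = 0.0048) were called higher, and SDHC was not called (-0.054, edgeR adjusted p = 0.65). DHODH, the pyrimidine synthesis dehydrogenase, stood at -0.45 ± 0.0802 (SE, edgeR adjusted p = 0.00079), and its sign turned with the length offset (0.18, adjusted p = 0.29) and with limma on log2(TPM + 1) (0.10, adjusted p = 0.44).

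Of 11 accessory and regulatory genes 2 rose, 3 fell and 6 did not pass, with a median of -0.011. PPTC7, a mitochondrial phosphatase, had 59.8, 63.3, 68.6 and 68.7 CPM in treated libraries 2 to 5, against 48.7, 49.5, 50.8 and 51.1 CPM in vehicle libraries 2 to 5 (0.38 ± 0.0642 SE, edgeR adjusted p = 0.00056). FDX2, a mitochondrial ferredoxin, also rose (0.54 ± 0.149 SE, edgeR adjusted p = 0.0099). Without vehicle library 2, the lowest of its group, the FDX2 rise was smaller (0.41, edgeR adjusted p = 0.0028). On log2(TPM + 1) with limma neither PPTC7 nor FDX2 was called (adjusted p = 0.064 and 0.078). HPDL, an enzyme of ring precursor synthesis, had 1.25, 1.02, 1.08 and 0.848 CPM in treated libraries 2 to 5, against 2.80, 4.22, 3.79 and 3.56 CPM in vehicle libraries 2 to 5. Its log2 fold change of -1.77 ± 0.162 (SE, edgeR adjusted p = 9.3e-06) was larger in size than that of any of the 10 synthesis genes.

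PARL, the inner membrane protease that releases the lipid transfer protein STARD7, fell (-0.31 ± 0.0991 SE, edgeR adjusted p = 0.020). COQ10A, a coenzyme Q binding protein, fell too (-0.25 ± 0.0817 SE, edgeR adjusted p = 0.024). Leaving out any 1 of treated libraries 3 and 4 and vehicle libraries 3, 4 and 5 ended the PARL call (edgeR adjusted p = 0.052 to 0.066), and any 1 of treated library 4 and vehicle libraries 3, 4 and 5 that of COQ10A (0.059 to 0.070). The COQ10A paralog COQ10B stood at 0.041 ± 0.120 (SE, edgeR adjusted p = 0.79). COQ8B, the paralog of COQ8A, stood at -0.17 ± 0.164 (SE, edgeR adjusted p = 0.39), and at -0.33 without vehicle library 2 (adjusted p = 0.018).

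**Figure D4:**
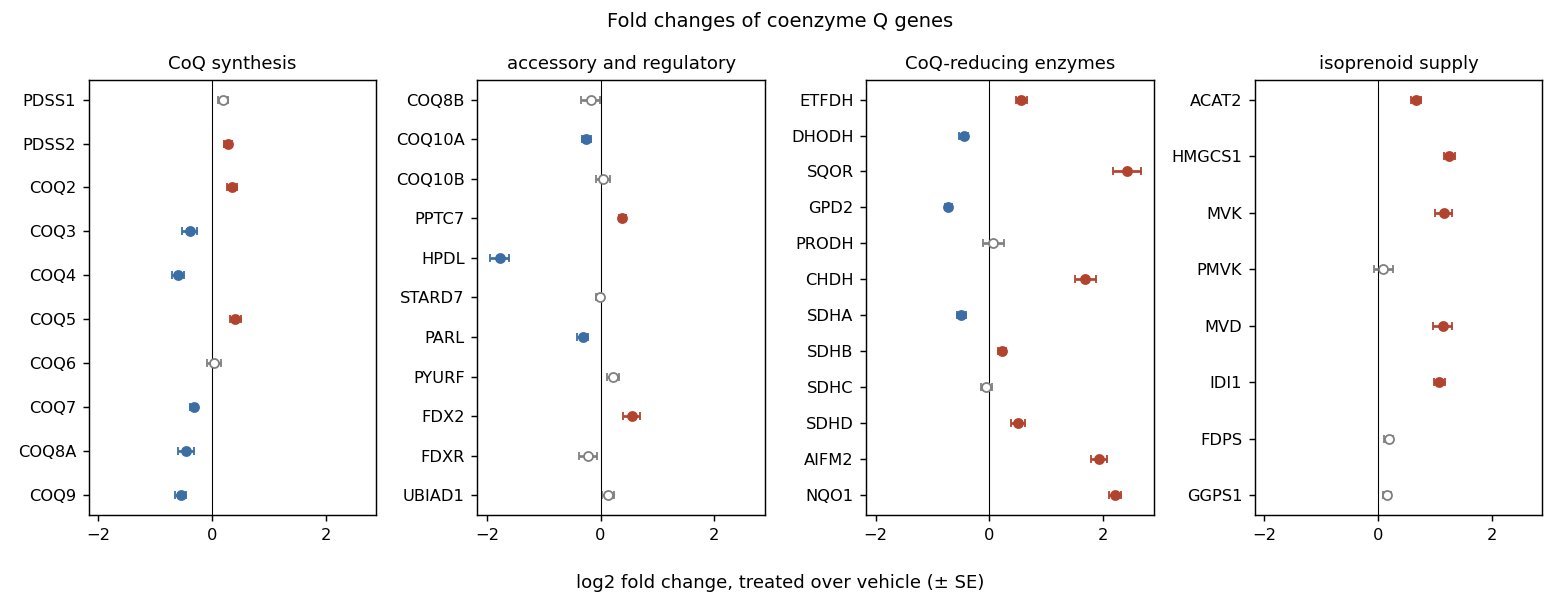
Log2 fold change of treated over vehicle ± SE (x axis) for the 10 synthesis genes and the 3 lists, with filled symbols where the edgeR adjusted p was under 0.05 (red higher, blue lower) and open symbols where it was not. The synthesis genes lie between -0.59 and 0.41, while 5 of 8 isoprenoid supply genes were called higher.

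**Figure D5:**
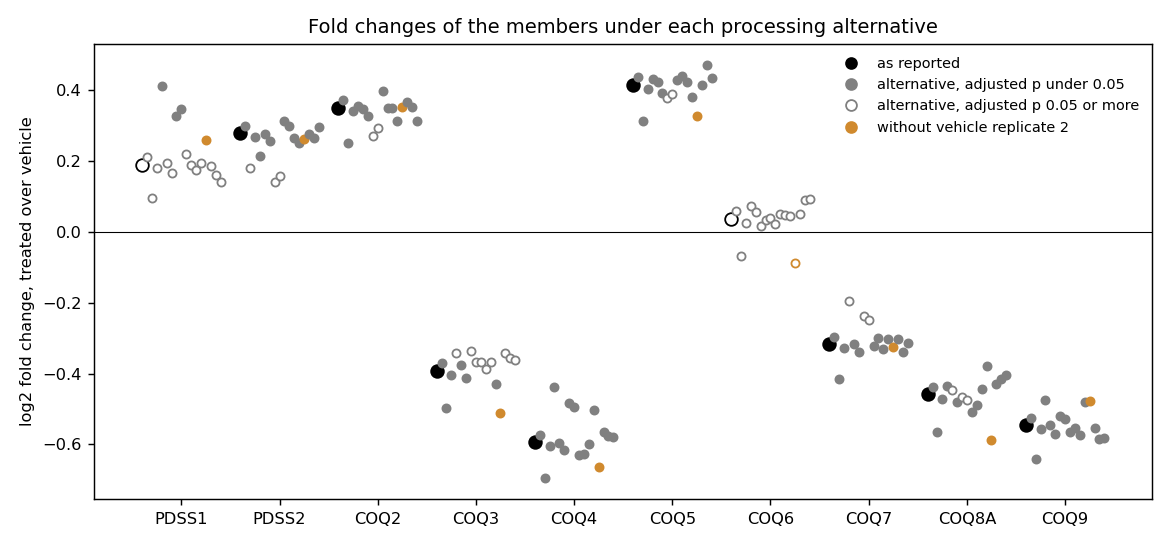
Log2 fold change of treated over vehicle (y axis) of each synthesis gene as reported (black) and in the 16 alternatives, in a fixed order, with open symbols where the adjusted p was 0.05 or more and orange for the fit without vehicle replicate 2. COQ4 and COQ9 stay called and below 0 throughout, and COQ6 lies on both sides of 0 with no call.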

How the data were processed

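RNA was measured by sequencing of KAPA mRNA HyperPrep libraries, 4 treated and 4 vehicle. The authors deposited estimated counts, effective lengths and TPM per gene and transcript, per the file headers; TPM are scaled by effective length. Not given in the sources used here are the quantifier, its settings and its strand mode. HISAT2, SAMtools, StringTie and hg38 are named, without versions, per the submitters' processing notes. A coding-gene table that the authors deposited holds a normalised signal of unnamed unit, a log2 fold change and p-values with a false discovery rate; it was read for its fold changes and false discovery rates only.

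Estimated counts were rounded, filtered with filterByExpr and scaled with TMM. All genes were fitted together with group as the single term, using the quasi-likelihood test of edgeR 4.0.16 in R 4.3.3 and Benjamini-Hochberg adjustment over all genes, with 0.05 as the threshold. Each SE was worked back from the F statistic and so carries no more than the test does. Transcript usage was tested with diffSpliceDGE on transcripts that reached 10 reads in 4 or more libraries, without the quantifier's own uncertainty. COQ8A-203 and COQ8A-208 were left out of the COQ8A shares, since the deposited gene counts place their reads elsewhere. Alternatives used DESeq2 1.42.0, limma 3.58.1 on log2(TPM + 1) and log2(TPM + 0.1), library totals, a length offset, protein-coding genes, no filter, the differentiation number and leaving out each library. The gene fit and the usage fit were also run on simulated counts. In these a small set of genes changed, as many up as down, with a fixed spread between libraries. Most genes tested were called in the real data, so that run does not bear on the scaling of the libraries here. Gene types and coordinates came from GENCODE 29.

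The members and lists were chosen with earlier results of these data known. Every member is named, with up to 3 genes called each way per list by adjusted p, and COQ8B, COQ10A, COQ10B, FDPS, GGPS1, SQOR, AIFM2 and NQO1 whatever their result. SDHB, SDHC and SDHD are given beside SDHA as the other complex II subunits. A further 2 listed genes are not reported here and were left out of the list counts. The differentiations are independent per the series text, so p-values measure the spread between them. Counting reads limits precision, with 347 to 8731 reads per member and library.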

Additional observations from a re-analysis of the deposited data

Results flagged for a closer look

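Of 56 sets of 4 libraries looked at, 8 had a single library far from the other 3 (Dixon's criterion for 4 values), and chance alone gives about 1 in 20. In 6 of the 8 it was vehicle library 2, always as the lowest, and this library also holds the highest share of mitochondrial mRNA (11.5%). Among the synthesis genes it stood at 3.82 CPM for COQ3, against 5.49 to 5.72 in the other vehicle libraries, at 27.5 CPM for COQ4, against 33.3 to 34.3, and at 48.8 CPM for COQ8A, against 71.9 to 75.4. Without it the falls of COQ3 (-0.51), COQ4 (-0.66) and COQ8A (-0.59) were larger in size.

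Among the accessory genes the same library was lowest for COQ8B (18.9 CPM, the others 30.5 to 31.9), FDX2 (3.62 CPM, the others 5.55 to 5.76) and PARL (25.8 CPM, the others 33.6 to 35.0). COQ8B was also lowest in treated library 5, at 19.7 CPM against 26.1 to 26.9 in the other treated libraries. NQO1 was highest in vehicle library 3, at 40.0 CPM against 29.5 to 30.3 in the other vehicle libraries. Whether the mitochondrial mRNA share of vehicle library 2 has a part in its low values was not tested.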

How the results depend on the processing

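Over 16 alternatives for each of the 10 members, 132 of the values kept their direction and their side of the threshold, 22 lost the call, 4 gained it and 2 changed sign. For the other genes named from the lists, SDHB, SDHC and SDHD aside, these numbers were 259, 18, 3 and 8. COQ6 changed sign with library totals only (-0.068) and without vehicle replicate 2, where leaving out 1 library gave -0.089 to 0.093. COQ10B changed sign with library totals only (-0.062), with limma on log2(TPM + 1) and on log2(TPM + 0.1) (-0.040 each), without treated replicate 5 (-0.038) and without vehicle replicate 2 (-0.059), and leaving out 1 library gave -0.059 to 0.092. DHODH changed sign with the length offset (0.18) and with limma (0.10 and 0.13). No value that changed sign was past the threshold, and the cause was not tested.

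With the length offset 4 members were higher and 3 lower, against 3 higher and 5 lower as reported. With limma on either log2 TPM scale 1 member was higher and 2 were lower, and 0 accessory genes were higher and 1 was lower. Leaving out 1 library gave 1 to 5 lower accessory genes, 5 of them without vehicle replicate 2. Library totals gave 37.9% of calls as higher, against 47.8% with TMM, and shifted the median of all genes by -0.098. Usage was called in 497 genes with protein-coding transcripts only, against 1097, and in 619 to 1594 when 1 library was left out. Among members it was called in 0 to 1, the 1 being COQ7 without vehicle replicate 2 (edgeR adjusted p = 0.013), against 1.0 with at least 50 reads per transcript and with protein-coding transcripts only.

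The titles give the same differentiation numbers in both groups, and the series text states no pairing of them, so the main fit had none. Same-numbered libraries did not deviate together (correlations -0.080 to 0.032), and no library correlated best with its own number. With so few libraries per group, these correlations cannot show that equal numbers are unpaired. With the replicate block 3 members were higher and 4 lower, with COQ8A at -0.45 (edgeR adjusted p = 0.054), COQ10A stood at -0.24 (0.052) and lost its call as well, and usage was called in 0 members.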
